A study of Mus musculus with 10 samples.

Results

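RNA of 10 genes of antigen presentation by major histocompatibility complex (MHC) class II was measured in sorted regulatory T cells (Tregs) of melanoma-bearing mice. They were taken by name, with no measured value in the rule, as H2-Ab1, H2-Aa, H2-Eb1, Cd74, H2-DMa, H2-DMb1, H2-Oa, H2-Ob, Ciita and Ctss. Cd74 lies on chromosome 18 and the positions of the others are given below. Each symbol matched 1 row of the count table, so they are 10 of 21556 genes, and all 10 passed the filter on low counts that left 13920 genes for testing. The cells had been sorted by red fluorescent protein after injection of a lymphangiogenic melanoma cell line, and came from tumor or from LN (lymph node). Mice labelled MHCIIdeltaProx-1, here called MHCII-deleted, carry Cre and are designed to lack MHC class II on lymphatic endothelial cells. Mice labelled MHCIIfl/fl, here called control, have the same floxed allele without Cre. There were 2 libraries of tumor Tregs from MHCII-deleted mice (called deleted-tumor), 3 from control mice (control-tumor), 2 of LN Tregs from MHCII-deleted mice (deleted-LN) and 3 from control mice (control-LN), and the mice were 10 weeks old. Prox1 drives the Cre in lymphatic endothelium, so the sorted Tregs themselves are not the cells in which the allele is removed, and the counts below cannot check the deletion. Which class II gene is floxed, the strain, and whether 2 libraries can come from 1 animal are not given in the sources used here. The p-values therefore measure the spread between these libraries, which may be partly technical.

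An MHC class II molecule is a pair of an alpha and a beta chain that displays peptides from endosomes to CD4 T cells. The chains assemble with the invariant chain Cd74, which blocks the groove until cathepsin S (Ctss) and other proteases cut it down, and the remaining fragment is then exchanged for peptide with the help of H2-DM, a step that H2-O restrains. Ciita is the coactivator that turns the chain genes, Cd74, H2-DM and H2-O on through RFX and NF-Y, which sit on the X and Y boxes of their promoters. Dendritic cells, B cells and macrophages make class II constitutively, other cells do so under interferon gamma, and mouse T cells are generally held to make little of it.

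All libraries were deep, with 28539329 to 35736175 counts, so that a count of 0 (a floor of 3 counts) allows at most 0.0809 to 0.107 CPM (counts scaled to a library of 1000000 counts, after TMM normalisation). Such floors cover counting error only, since amplified reads carry no molecular identifiers. Foxp3, the lineage factor of Tregs, was detected at 342 to 349 CPM in deleted-tumor libraries, 646 to 817 in control-tumor libraries, 580 to 654 in deleted-LN libraries and 644 to 747 in control-LN libraries. The tumor libraries also held melanoma transcripts. Melanoma markers summed to 14750 and 18420 CPM in deleted-tumor libraries, against 3703 to 7303 CPM in control-tumor libraries, and to at most 27.2 CPM in any LN library. A set of 20 genes shared by T cells in general (pan-T cell genes) summed to 6319 and 7532 CPM in deleted-tumor libraries, against 14620 to 15270 CPM in control-tumor libraries, with 15730 and 16110 CPM in deleted-LN libraries and 15580 to 16360 CPM in control-LN libraries. Tumor comparisons between the genotypes are therefore given below as CPM and, for the members and for the counts of each list, also relative to the pan-T cell genes. In bulk libraries such as these, fewer cells of a type and less RNA per cell cannot be told apart.

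The 3 classical chains map to the MHC on chromosome 17 in GRCm38, H2-Ab1 at 34257689 to 34269419, H2-Aa at 34282744 to 34287823 on the minus strand and H2-Eb1 at 34305867 to 34316674. The same region holds H2-Oa (34092340 to 34095234), H2-DMa (34119541 to 34139101), H2-DMb1 (34153072 to 34160230) and H2-Ob (34238903 to 34254414). Ciita lies on chromosome 16 (10480059 to 10528418) and Ctss on chromosome 3 (95526786 to 95556403). The promoters shown are those of 2 chains that were higher in tumor, of a H2-O chain that was lower there, and of Ctss, whose genotype difference differed between the tissues. Only promoters with a core inside the printed bases are shown, so their holding a core was fixed by this choice. Each line gives the 130 bases just before the first annotated base of the gene, 5′ to 3′ on the strand of the gene, from RefSeq GRCm38.p6. H2-Aa is at chr17:34287824-34287953 on the minus strand, H2-Eb1 at chr17:34305737-34305866, H2-Ob at chr17:34238773-34238902 and Ctss at chr3:95526656-95526785, all 3 on the plus strand. Capitals mark the X box core (AACNNNTGA or AACNNTGA) and the Y box core (TGATTGG), or, in Ctss, the core of an interferon-stimulated element (GAAANNGAA).
H2-Aa: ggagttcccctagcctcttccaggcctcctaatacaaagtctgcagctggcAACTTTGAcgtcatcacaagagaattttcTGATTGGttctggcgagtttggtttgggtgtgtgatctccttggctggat
H2-Eb1: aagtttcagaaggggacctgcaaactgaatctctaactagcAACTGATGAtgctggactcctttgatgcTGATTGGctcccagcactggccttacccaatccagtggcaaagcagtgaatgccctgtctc
H2-Ob: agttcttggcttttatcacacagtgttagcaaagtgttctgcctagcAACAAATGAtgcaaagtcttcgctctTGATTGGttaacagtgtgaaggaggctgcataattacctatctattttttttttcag
Ctss: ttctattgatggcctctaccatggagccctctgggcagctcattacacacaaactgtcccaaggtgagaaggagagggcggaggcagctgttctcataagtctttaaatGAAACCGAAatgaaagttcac
H2-Aa and H2-Eb1, which stood higher in tumor, and H2-Ob, which stood lower there, all hold an X core followed by a Y core. Of the promoters not shown, that of H2-DMb1, higher in tumor, also held both. That of H2-Oa, lower in tumor, held a Y core and no X core. The promoter table had entries for 7 of the 10 members, 8 promoters in all, each from 250 bases before to 50 bases after a gene start. Searched on both strands, 4 of these 8 held both an X core and a Y core, as did 1.7% of 32851 promoters. The Y core was in 5 of the 8 and in 7.82% of all promoters, and an X core of either spacing was in 4 of the 8 and in 22% of all promoters. The interferon element core was in 1 of the 8, that of Ctss, and in 8.56% of all promoters. A match is a string of letters in a window and not a measured binding site.

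The 10 genes covered a wide range of levels. Levels were compared between genes as CPM per kilobase of exon. In deleted-tumor libraries the order by mean was Cd74 (207 ± 79.5 CPM per kb, SD, n = 2), Ctss (145 ± 30.9), H2-DMa (12.3 ± 4.28), H2-Ab1 (10.6 ± 6.53), H2-DMb1 (8.65 ± 2.93), H2-Eb1 (8.34 ± 6.64), H2-Aa (6.64 ± 6.67), H2-Oa (5.11 ± 0.0241), H2-Ob (2.33 ± 0.318) and Ciita (0.288 ± 0.272). In control-tumor libraries it was Cd74 (467 ± 89.6 CPM per kb, SD, n = 3), Ctss (317 ± 39.8), H2-Ab1 (23.2 ± 10.1), H2-DMa (22.04 ± 5.07), H2-Eb1 (13.6 ± 7.19), H2-Oa (10.5 ± 2.23), H2-Aa (10.3 ± 7.30), H2-DMb1 (6.24 ± 3.38), H2-Ob (4.06 ± 0.712) and Ciita (0.323 ± 0.106). The invariant chain thus had the highest mean in both tumor groups, far above the chains it assembles with. Among neighbours in these orders, the libraries overlapped for Cd74 and Ctss in deleted-tumor libraries, for every pair from H2-DMa to H2-Oa in that group and for every pair from H2-Ab1 to H2-Ob in control-tumor libraries, and those genes cannot be ranked within the spread.

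In LN, Ctss came first and the chains came behind H2-DM alpha and both H2-O chains. The order in deleted-LN libraries was Ctss (357 ± 40.1 CPM per kb, SD, n = 2), Cd74 (224 ± 31.8), H2-DMa (29.2 ± 1.99), H2-Oa (17.1 ± 1.61), H2-Ob (13.5 ± 0.646), H2-Ab1 (6.21 ± 0.194), H2-Eb1 (3.41 ± 0.508), H2-Aa (2.91 ± 0.575), H2-DMb1 (0.564 ± 0.446) and Ciita (0.265 ± 0.0461). In control-LN libraries it was Ctss (348 ± 5.78 CPM per kb, SD, n = 3), Cd74 (252 ± 17.6), H2-DMa (28.8 ± 1.71), H2-Oa (20.5 ± 0.938), H2-Ob (13.2 ± 2.02), H2-Ab1 (3.53 ± 1.59), H2-Eb1 (2.34 ± 1.36), H2-Aa (1.10 ± 0.571), H2-DMb1 (0.660 ± 0.108) and Ciita (0.119 ± 0.114). Neighbours from Ctss down to H2-Ab1 did not overlap in either LN group. Overlap was seen between H2-Eb1 and H2-Aa in both, between H2-DMb1 and Ciita in MHCII-deleted mice, and between H2-Ab1 and H2-Eb1 and between H2-Aa and H2-DMb1 in control mice.

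**Figure D1:**
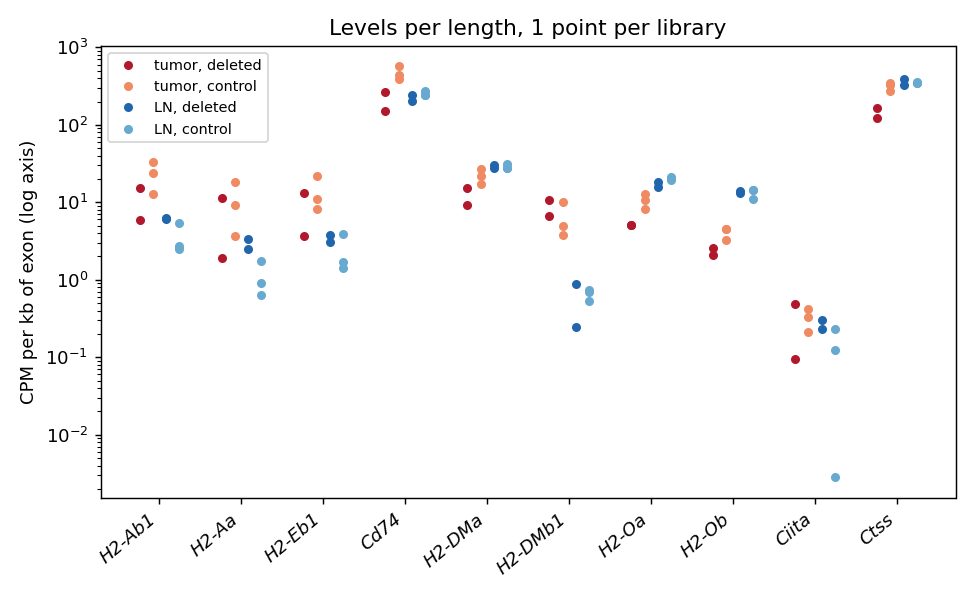
Level of each of the 10 genes in CPM per kilobase of exon (log axis), 1 point per library, coloured by group. Cd74 and Ctss sit above 100 in every library, Ciita sits below 0.5, and all LN points of H2-DMb1 lie well under its tumor points.

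The classical chains form the peptide groove itself. H2-Ab1, the beta chain of I-A, had 15.4 and 39.1 CPM in deleted-tumor libraries, against 84.3, 32.6 and 61.5 CPM in control-tumor libraries, and 16.3 and 15.6 CPM in deleted-LN libraries, against 6.41, 7.01 and 13.8 CPM in control-LN libraries. H2-Aa, the alpha chain of I-A, had 7.29 and 43.1 CPM in deleted-tumor libraries, against 69.0, 14.0 and 34.8 CPM in control-tumor libraries, and 9.49 and 12.6 CPM in deleted-LN libraries, against 3.49, 2.401 and 6.58 CPM in control-LN libraries. H2-Eb1, the beta chain of I-E, had 7.09 and 25.3 CPM in deleted-tumor libraries, against 42.4, 15.98 and 21.1 CPM in control-tumor libraries, and 5.94 and 7.33 CPM in deleted-LN libraries, against 2.73, 3.32 and 7.59 CPM in control-LN libraries. The first control tumor library was the highest for every chain, and the first tumor library of MHCII-deleted mice lay among the LN libraries. Within LN, both libraries of MHCII-deleted mice stood above all 3 control libraries for H2-Ab1 and H2-Aa, while H2-Eb1 overlapped. Neither H2-Ab1 nor H2-Aa passed the test there (edgeR adjusted p = 0.79 and 0.732). The share of all tested genes that stand apart in this way was not counted, so the separation is no support for a difference. H2-Ea-ps, the alpha chain locus of I-E, had a count of 0 in every library.

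The proportions of the chains varied less than their levels. H2-Eb1 spanned 15.5-fold over the 10 libraries, but its ratio to H2-Ab1 per kilobase lay between 0.454 and 0.857, a span of 1.89-fold. The ratio of H2-Aa to H2-Ab1 per kilobase lay between 0.231 and 0.746, a span of 3.23-fold, while H2-Aa itself spanned 28.7-fold. The I-A and I-E chains therefore stood high or low in the same libraries. The 3 chains together summed to 29.8 and 107.5 CPM in deleted-tumor libraries, against 196, 62.6 and 118 CPM in control-tumor libraries, with 31.7 and 35.5 CPM in deleted-LN libraries and 12.6, 12.7 and 27.9 CPM in control-LN libraries. Per 1000 counts of pan-T cell genes the same sums were 4.71 and 14.3 in deleted-tumor libraries, 12.8, 4.19 and 8.04 in control-tumor libraries, 1.97 and 2.26 in deleted-LN libraries and 0.810, 0.778 and 1.77 in control-LN libraries. On that scale each tumor library exceeded each LN library, and the tumor ranges of the genotypes overlapped.

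Cd74, the invariant chain, had 254 and 442 CPM in deleted-tumor libraries, against 952, 661 and 739 CPM in control-tumor libraries, and 338 and 414 CPM in deleted-LN libraries, against 456, 406 and 404 CPM in control-LN libraries. The control tumor libraries stood above all others. Relative to the summed chains per kilobase, Cd74 was 6.65 to 13.1 times higher in deleted-tumor libraries, 7.79 to 15.99 in control-tumor libraries, 16.9 to 18.7 in deleted-LN libraries and 21.9 to 56.4 in control-LN libraries. The excess of invariant chain over chains was thus larger in each LN library than in any tumor library.

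H2-DM is the heterodimer that loads peptide, and its 2 chains did not follow each other. H2-DMa, the alpha chain, had 32.0 and 52.9 CPM in deleted-tumor libraries, against 94.0, 59.1 and 74.9 CPM in control-tumor libraries, and 95.8 and 105.5 CPM in deleted-LN libraries, against 95.9, 96.1 and 106 CPM in control-LN libraries. H2-DMb1, a beta chain, had 11.1 and 18.0 CPM in deleted-tumor libraries, against 17.0, 6.27 and 8.24 CPM in control-tumor libraries, and 1.48 and 0.418 CPM in deleted-LN libraries, against 1.18, 1.24 and 0.902 CPM in control-LN libraries. On the CPM scale each tumor library was above each LN library for H2-DMb1 and below each of them for H2-DMa, there by as little as 94.0 against 95.8 CPM. Per 1000 counts of pan-T cell genes H2-DMa overlapped, with 3.95 to 7.02 over the tumor libraries and 5.87 to 6.74 over the LN libraries. H2-DMb1 still stood apart on that scale, with at least 0.4195 in tumor and at most 0.0917 in LN. Per kilobase, H2-DMa exceeded H2-DMb1 by 1.41 to 1.43 times in deleted-tumor libraries, 2.70 to 4.59 times in control-tumor libraries, 31.6 to 123 times in deleted-LN libraries and 37.8 to 57.4 times in control-LN libraries. The second beta chain gene, H2-DMb2, stood at 0.101 and 0.744 CPM in deleted-tumor libraries, 0.991 to 3.91 in control-tumor libraries, 3.67 and 3.75 in deleted-LN libraries and 1.804 to 3.07 in control-LN libraries. In each LN library it exceeded H2-DMb1, yet stayed far below H2-DMa. Of the 50-base windows in H2-DMb1 transcripts, 22.7% also occur in another gene, chiefly H2-DMb2, and 8.43% of those of H2-DMa occur in the oppositely directed gene Brd2, which shares 360 exon bases. Reads from such windows may have been split or left out, and the strand setting of the counting is not given in the sources used here, so these levels carry that uncertainty.

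H2-O, the inhibitor of H2-DM, stood lower in tumor. H2-Oa had 7.16 and 7.21 CPM in deleted-tumor libraries, against 11.6, 15.0 and 17.9 CPM in control-tumor libraries, and 22.5 and 25.7 CPM in deleted-LN libraries, against 27.6, 28.7 and 30.2 CPM in control-LN libraries. H2-Ob had 13.8 and 11.3 CPM in deleted-tumor libraries, against 17.4, 24.1 and 24.0 CPM in control-tumor libraries, and 74.9 and 70.0 CPM in deleted-LN libraries, against 58.5, 77.6 and 77.0 CPM in control-LN libraries. For both genes the libraries stood in the order deleted-tumor, control-tumor and LN, from low to high, without overlap. The ratio of H2-Ob to H2-Oa per kilobase was 0.411 to 0.502 in deleted-tumor libraries, 0.352 to 0.419 in control-tumor libraries, 0.713 to 0.872 in deleted-LN libraries and 0.554 to 0.708 in control-LN libraries. H2-Oa shares 321 exon bases with BC051537 on the other strand, which holds 15.5% of its 50-base windows.

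Ciita, the class II coactivator, was near the lower end of detection. It had 0.908 and 4.58 CPM in deleted-tumor libraries, against 4.03, 2.01 and 3.20 CPM in control-tumor libraries, and 2.84 and 2.22 CPM in deleted-LN libraries, against 1.18, 0.0270 and 2.21 CPM in control-LN libraries. The lowest of these is 1 count. The genotypes overlapped in tumor, and in LN they stood apart by no more than the gap between 2.22 and 2.21 CPM. Dexi, on the other strand, shares 329 exon bases with Ciita. Ctss, the protease that trims the invariant chain, had 168 and 227 CPM in deleted-tumor libraries, against 477, 371 and 444 CPM in control-tumor libraries, and 447 and 524 CPM in deleted-LN libraries, against 474, 465 and 481 CPM in control-LN libraries. Only the 2 tumor libraries of MHCII-deleted mice stood apart for Ctss.

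**Figure D2:**
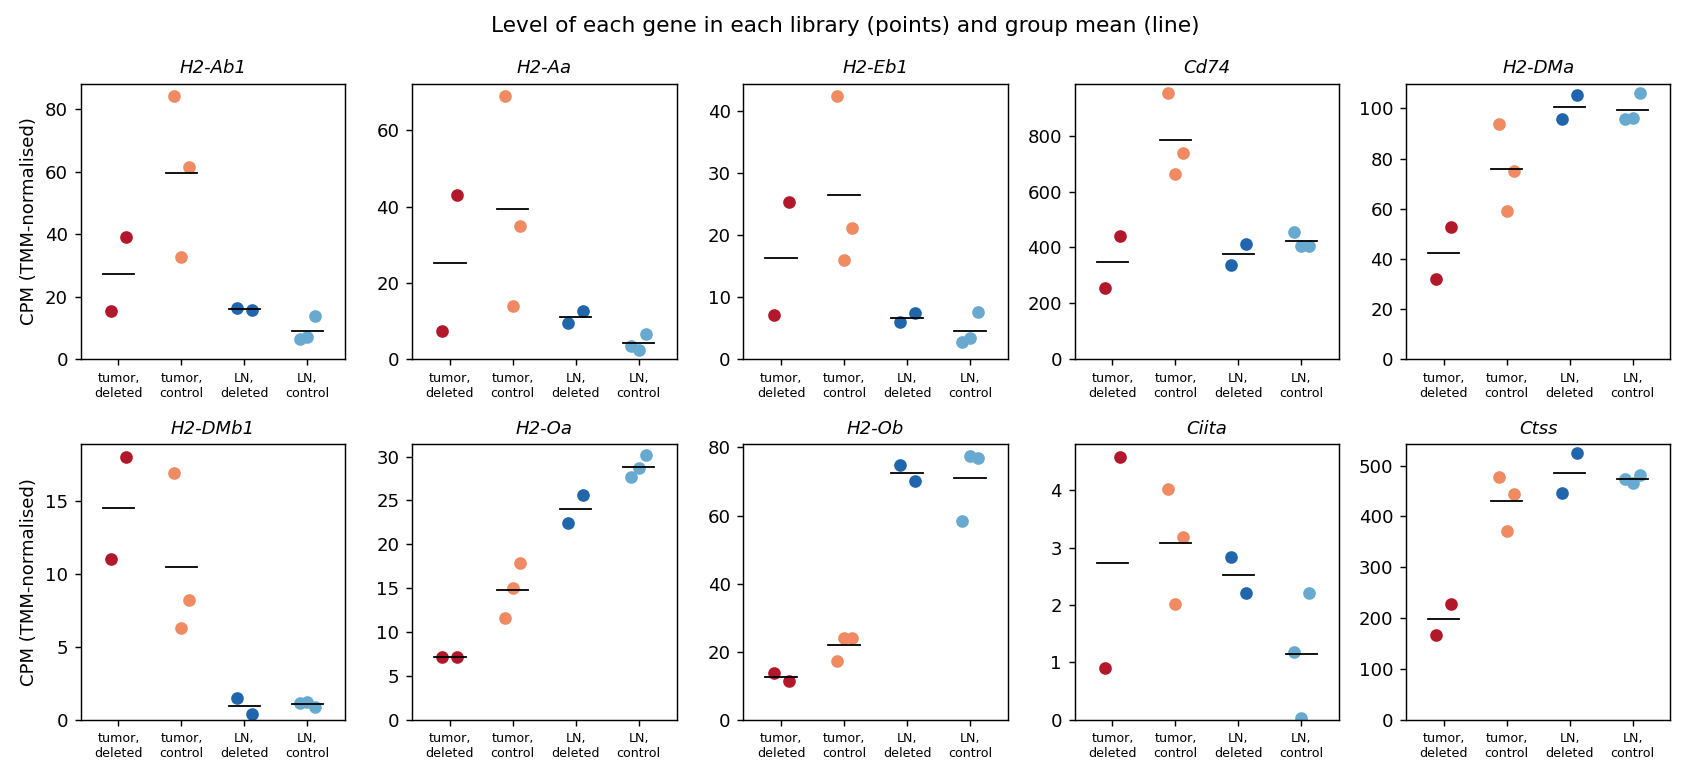
CPM (TMM-normalised) of each of the 10 genes in each library (points), with the group mean as a line, for the 4 groups. The chains and H2-DMb1 have their highest libraries in tumor, both H2-O genes are highest in LN, and Ctss is low only in deleted-tumor libraries.

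The first comparison asked whether tumor Tregs differ between mice with and without class II on lymphatic endothelium. On the CPM scale, 5 of the 10 genes were lower in deleted-tumor libraries and 0 were higher, against 13.7% lower and 15.0% higher among all tested genes (edgeR quasi-likelihood test with Benjamini-Hochberg adjustment, adjusted p under 0.05). Cd74 averaged 348 ± 133 CPM in MHCII-deleted and 784 ± 150 CPM in control mice (SD, n = 2 and 3), a log2 fold change of -1.17 ± 0.23 (SE, edgeR adjusted p = 0.00546). Ctss averaged 197 ± 41.9 CPM in MHCII-deleted and 430 ± 54.1 CPM in control mice, a log2 fold change of -1.13 ± 0.15 (edgeR adjusted p = 0.000794). The others called lower were H2-Oa (-1.04 ± 0.22, adjusted p = 0.00666), H2-DMa (-0.84 ± 0.23, adjusted p = 0.023) and H2-Ob (-0.80 ± 0.20, adjusted p = 0.0142), also by edgeR. In all 5 the libraries of the genotypes did not overlap, but the share of such genes among all tested genes was not counted. The lack of overlap is therefore no support beyond the calls. The peptide-binding chains did not pass, with log2 fold changes of -1.13 ± 0.50 for H2-Ab1 (edgeR adjusted p = 0.121), -0.64 ± 0.78 for H2-Aa (adjusted p = 0.571) and -0.71 ± 0.62 for H2-Eb1 (adjusted p = 0.419). Neither did H2-DMb1 (0.47 ± 0.54, edgeR adjusted p = 0.544) or Ciita (-0.17 ± 1.14, adjusted p = 0.931). The median log2 fold change was -0.82 over the 10 genes and 0.10 over all tested genes. H2-DMa was not called without the first tumor library of MHCII-deleted mice (-0.52, edgeR adjusted p = 0.142) or without the first of control mice (-0.66, adjusted p = 0.0612). Without the second library of MHCII-deleted mice, H2-Ob was not called (-0.67, edgeR adjusted p = 0.083) and H2-Ab1 was called lower (-1.95, adjusted p = 0.0385). Cd74 and Ctss were the 2 still called by limma-voom, and H2-Oa stood beside them when only the tumor libraries were fitted (3 called).

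T cell transcripts as a whole were lower in the same comparison, so the scale matters. Of the 20 pan-T cell genes 19 were called lower, with a median log2 fold change of -1.05, and Foxp3 stood at -1.09 ± 0.12 (edgeR adjusted p = 0.000302) and Cd4 at -1.06 ± 0.09 (adjusted p = 0.000144). When libraries were scaled to the pan-T cell genes, 0 of the 10 genes were lower and 1 was higher, against 0.330% lower and 67.2% higher among all tested genes. The median over all genes moved to 1.22 on that scale, and that over the 10 genes to 0.29. Cd74 stood at -0.08 (edgeR adjusted p = 0.722), Ctss at -0.02 (adjusted p = 0.887) and H2-Ab1 at -0.06 (adjusted p = 0.919). H2-Oa (0.07), H2-DMa (0.25), H2-Ob (0.33), H2-Eb1 (0.35), H2-Aa (0.40) and Ciita (0.87) turned to the other side of 0 without passing the test. H2-DMb1 was the gene called higher, at 1.57 (edgeR adjusted p = 0.0189). It thus lay above 0 on both scales and was called on 1. Higher melanoma transcripts and lower T cell transcripts go with the genotype in these 5 libraries, and their part in the member values beyond this rescaling was not tested.

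**Figure D3:**
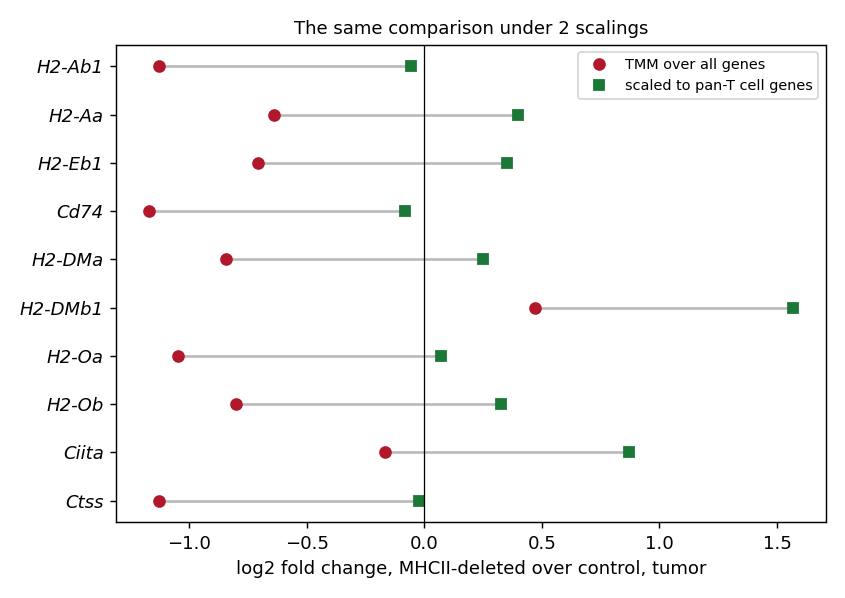
Log2 fold change in tumor, MHCII-deleted over control, of each of the 10 genes under normalisation over all genes (TMM, circles) and under scaling to the pan-T cell genes (squares). Every gene lies farther right on the second scale. Cd74, Ctss and H2-Ab1 come close to 0, and H2-DMb1 moves to 1.57.

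In LN, where the libraries of both genotypes held like amounts of pan-T cell transcripts, 0 of the 10 genes passed the test in either direction, against 1.07% higher and 0.0359% lower among all tested genes (edgeR, adjusted p under 0.05). At an unadjusted p under 0.05 the count was 0 by edgeR, 0 by DESeq2 and 1 by limma-voom, and after adjustment it was 0 by each of them. The chains had positive values, with H2-Aa averaging 11.0 ± 2.19 CPM in MHCII-deleted and 4.16 ± 2.17 CPM in control mice (SD, n = 2 and 3), a log2 fold change of 1.41 ± 0.78 (SE, edgeR adjusted p = 0.732). H2-Ab1 averaged 15.95 ± 0.498 CPM in MHCII-deleted and 9.06 ± 4.09 CPM in control mice (0.82 ± 0.49). Ciita stood at 1.16 ± 1.14 and H2-Eb1 at 0.55 ± 0.61. The abundant genes of the pathway sat close to 0, at 0.04 ± 0.15 for Ctss, 0.03 ± 0.19 for H2-Ob, 0.02 ± 0.22 for H2-DMa and -0.17 ± 0.22 for Cd74. H2-Oa stood at -0.26 ± 0.21 and H2-DMb1 at -0.22 ± 0.59. The median was 0.03 over the 10 genes and 0 over all tested genes. The errors of the chains and of Ciita are several times wider than those of Ctss, H2-Ob, H2-DMa and Cd74, so only larger differences could have been detected in them.

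Set against LN, control-tumor libraries had more RNA of the classical chains and less of H2-O. The invariant chain and the beta chain of H2-DM were higher with them. Of the 10 genes 5 were called higher and 2 lower, against 22.8% higher and 16.1% lower among all tested genes (edgeR, adjusted p under 0.05). H2-Aa averaged 39.3 ± 27.7 CPM in tumor and 4.16 ± 2.17 CPM in LN (SD, n = 3 each), a log2 fold change of 3.24 ± 0.76 (SE, edgeR adjusted p = 0.00834). H2-Ab1 averaged 59.5 ± 25.9 CPM in tumor and 9.06 ± 4.09 CPM in LN (2.72 ± 0.46, edgeR adjusted p = 0.00156). H2-Eb1 averaged 26.5 ± 14.0 CPM in tumor and 4.54 ± 2.65 CPM in LN (2.55 ± 0.58, edgeR adjusted p = 0.00699). H2-DMb1 averaged 10.5 ± 5.68 CPM in tumor and 1.11 ± 0.181 CPM in LN (3.24 ± 0.54, edgeR adjusted p = 0.00128), a fold close to that of H2-Aa. Cd74 moved less, to 784 ± 150 CPM in tumor against 422 ± 29.5 CPM in LN (0.89 ± 0.20, edgeR adjusted p = 0.00652). H2-Ob was lower at 21.8 ± 3.83 CPM in tumor against 71.0 ± 10.9 CPM in LN (-1.70 ± 0.17, edgeR adjusted p = 5.88e-05), as was H2-Oa at 14.8 ± 3.13 CPM in tumor against 28.8 ± 1.32 CPM in LN (-0.96 ± 0.19, adjusted p = 0.00302). H2-DMa (-0.39 ± 0.20, edgeR adjusted p = 0.153), Ctss (-0.14 ± 0.13, adjusted p = 0.438) and Ciita (1.44 ± 1.05, adjusted p = 0.301) did not pass. The same 7 genes were called in the same direction in each of the 8 other settings and each of the 6 fits that left out 1 library, scaling to the pan-T cell genes included. The median was 1.17 over the 10 genes and 0.08 over all tested genes.

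In MHCII-deleted mice H2-DMb1 was again higher in tumor and H2-O lower, while the chains did not stand clear of the spread. Here 1 gene was called higher and 4 lower, against 24.3% higher and 20.1% lower among all tested genes (edgeR, adjusted p under 0.05). H2-DMb1 averaged 14.5 ± 4.92 CPM in tumor and 0.948 ± 0.749 CPM in LN (SD, n = 2 each), a log2 fold change of 3.93 ± 0.69 (SE, edgeR adjusted p = 0.00124). H2-Ob averaged 12.5 ± 1.71 CPM in tumor and 72.5 ± 3.48 CPM in LN (-2.53 ± 0.22, edgeR adjusted p = 1.74e-05). H2-Oa (-1.74 ± 0.24, edgeR adjusted p = 0.000263), Ctss (-1.30 ± 0.16, adjusted p = 0.000164) and H2-DMa (-1.25 ± 0.25, adjusted p = 0.00281) were also lower in tumor. The 3 chain values were 1.29 ± 0.68 for H2-Eb1 (edgeR adjusted p = 0.149), 1.19 ± 0.86 for H2-Aa (adjusted p = 0.282) and 0.77 ± 0.54 for H2-Ab1 (adjusted p = 0.267). Ciita (0.12 ± 1.25) and Cd74 (-0.11 ± 0.24) did not pass either. Without the first of the deleted-tumor libraries H2-Eb1 was called higher (1.93, edgeR adjusted p = 0.0411). The median was 0.00 over the 10 genes and 0.07 over all tested genes. Scaled to the pan-T cell genes, 5 of the 10 were higher and 1 was lower, against 64.4% higher and 2.28% lower among all tested genes, whose median moved to 1.28. The share of members called higher there was below that of all genes. On that scale H2-Eb1 (2.43), H2-Aa (2.31), H2-Ab1 (1.93) and Cd74 (1.06) passed beside H2-DMb1, with edgeR adjusted p values of 0.00833, 0.0314, 0.00748 and 0.00131, and H2-Ob was the gene still called lower. H2-DMa (-0.07), Ctss (-0.11) and H2-Oa (-0.54) no longer passed. The tissue and genotype comparisons share libraries, so their values are not independent of each other.

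**Figure D4:**
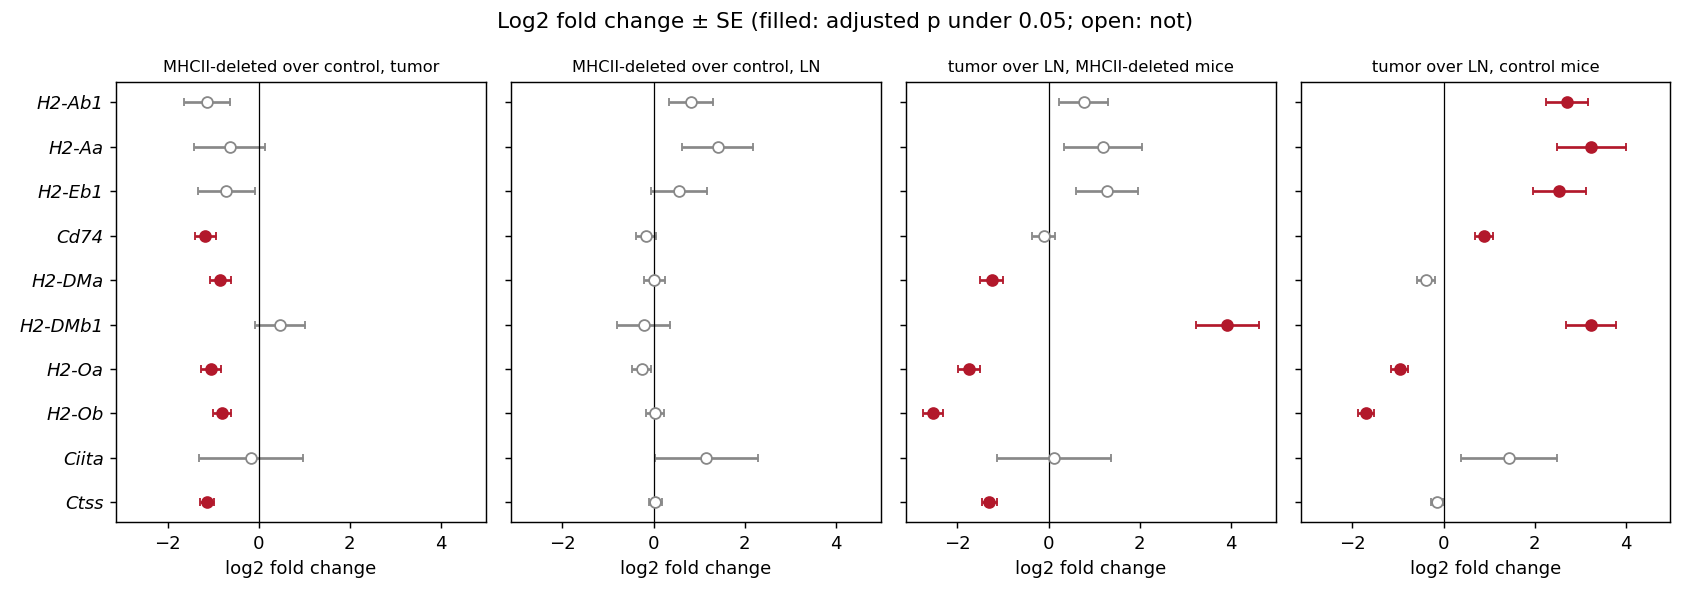
Log2 fold change ± SE of each of the 10 genes in 4 comparisons (TMM normalisation), with filled points for an edgeR adjusted p under 0.05. In control mice the chains, Cd74 and H2-DMb1 lie right of 0 and the H2-O genes left of it, and in LN between the genotypes no point is filled.

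The difference of the genotype effects between tumor and LN was tested as an interaction. Ctss alone of the 10 passed, at -1.16 ± 0.21 (log2, SE, edgeR adjusted p = 0.0099), against 6.57% lower and 4.14% higher among all tested genes, so the share of members called was near that of all genes. Its genotype values were -1.13 in tumor and 0.04 in LN. Cd74 (-1.004 ± 0.32, edgeR adjusted p = 0.0725), H2-Ob (-0.83 ± 0.27, adjusted p = 0.0795), H2-Ab1 (-1.95 ± 0.70, adjusted p = 0.106), H2-DMa (-0.86 ± 0.32, adjusted p = 0.116) and H2-Oa (-0.78 ± 0.30, adjusted p = 0.12) did not. H2-Aa (-2.05 ± 1.11), H2-Eb1 (-1.26 ± 0.87), Ciita (-1.32 ± 1.63) and H2-DMb1 (0.69 ± 0.81) had wider errors. The Ctss call held in all 10 fits that left out 1 library (edgeR adjusted p of 0.0025 to 0.0455). Without the second tumor library of MHCII-deleted mice 5 genes passed (H2-Ab1, H2-Aa, Cd74 and H2-DMa beside Ctss), and without the first of control mice 2 (H2-Ob beside Ctss). By DESeq2 3 passed, Ctss, Cd74 (-0.94, adjusted p = 0.0231) and H2-Ab1 (-1.88, adjusted p = 0.0343). Of the pan-T cell genes 18 of 20 were called lower in the same interaction, with a median of -1.08. Scaled to the pan-T cell genes, Ctss stood at -0.06 (edgeR adjusted p = 0.854) and 0 of the 10 passed, against 6367 higher and 21 lower of the 13920 tested genes.

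Genes of the factors that bind the chain promoters were mostly not called between the tissues of control mice. Of 8 such genes 1 was higher and 2 were lower in control-tumor than in control-LN libraries, against 22.8% higher and 16.1% lower among all tested genes. Rfxap, a subunit of the RFX complex, was the higher one (0.80 ± 0.26, edgeR adjusted p = 0.0364). Rfx5, the subunit that contacts the X box, was lower, at 25.4 ± 0.519 CPM in tumor and 48.3 ± 4.597 CPM in LN (SD, n = 3 each; -0.93 ± 0.12, edgeR adjusted p = 0.000257). Nfyb, a subunit of NF-Y, was lower too (-0.48 ± 0.09, edgeR adjusted p = 0.0027). In tumor, Rfxank, the third RFX subunit, averaged 13.5 ± 2.74 CPM in MHCII-deleted and 24.0 ± 1.98 CPM in control mice (-0.84 ± 0.18, edgeR adjusted p = 0.00781), and the other 7 did not pass. Scaled to the pan-T cell genes the list had 5 higher and 0 lower in that comparison, where 67.2% of all tested genes were higher and 0.330% lower, so its share was near that of all genes. In LN between the genotypes 0 of the 8 passed by edgeR, against 1.07% higher and 0.0359% lower among all tested genes. After scaling to the pan-T cell genes 1 of the 8 was called, against 390 of all 13920 tested genes.

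Other genes of endosomal processing, which are proteases beside Ctss and the protease inhibitor Cst3, were mostly higher in tumor. Of 8 analysed, 6 were higher and 0 lower in control-tumor than in control-LN libraries, against 22.8% and 16.1% of all tested genes. Ctsd, the aspartic protease cathepsin D, averaged 1273 ± 40.9 CPM in tumor and 622 ± 43.4 CPM in LN (1.03 ± 0.10, SE, edgeR adjusted p = 3.26e-05), and Ctsz, cathepsin Z, rose by a like factor (1.04 ± 0.12, adjusted p = 0.000141). Cst3, the cathepsin inhibitor cystatin C, was also higher (0.80 ± 0.11, edgeR adjusted p = 0.000353). Between the genotypes in tumor, Ctsc, the dipeptidyl peptidase cathepsin C, was lower at 124 ± 3.44 CPM in MHCII-deleted against 217 ± 21.02 CPM in control mice (-0.81 ± 0.11, edgeR adjusted p = 0.000866), as was Cst3 (-0.39 ± 0.12, adjusted p = 0.0402). Those were the 2 of the 8 that passed in that comparison, against 13.7% lower and 15.0% higher among all tested genes. In LN 0 of the 8 passed by edgeR, against 1.07% higher and 0.0359% lower among all tested genes. After scaling to the pan-T cell genes 7 of the 8 were higher in deleted-tumor libraries, Ctsc (0.31) and Cst3 (0.73) among them, as were 67.2% of all tested genes.

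Genes that set the lifetime and sorting of class II split. March8, a membrane ubiquitin ligase that can direct class II to lysosomes, stood at 63.8 ± 14.4 CPM in deleted-tumor libraries and 12.4 ± 3.12 CPM in control-tumor libraries (SD, n = 2 and 3; 2.36 ± 0.58, edgeR adjusted p = 0.015). Cd63, a tetraspanin of late endosomes, was likewise higher, at 352 ± 17.4 CPM in MHCII-deleted and 132 ± 41.3 CPM in control mice (1.41 ± 0.28, edgeR adjusted p = 0.00566). Both were under 2 CPM in every LN library. Melanoma markers, given above, were likewise higher in deleted-tumor than in control-tumor libraries and near 0 in LN, and their part in the March8 and Cd63 values was not tested. Cd83, which shields class II from ubiquitination, was lower in deleted-tumor libraries (-1.44 ± 0.18, edgeR adjusted p = 0.000523), as was the tetraspanin Cd82 (-1.33 ± 0.13, adjusted p = 0.00021). These were all 4 tested members of the list, and scaling to the pan-T cell genes left March8 and Cd63 higher and 0 lower, against 67.2% higher and 0.330% lower among all tested genes.

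Interferon gamma is the usual inducer of Ciita. Of 13 genes of its signaling, 8 were lower and 1 was higher in deleted-tumor than in control-tumor libraries, against 13.7% lower and 15.0% higher among all tested genes. Ifng itself averaged 17.8 ± 2.00 CPM in MHCII-deleted and 48.9 ± 6.92 CPM in control mice (SD, n = 2 and 3; -1.46 ± 0.31, edgeR adjusted p = 0.00721). The receptor chain Ifngr1 was lower (-0.93 ± 0.14, edgeR adjusted p = 0.00122), as was the kinase Jak1 (-0.60 ± 0.13, adjusted p = 0.00659), and the other receptor chain Ifngr2 was higher (0.69 ± 0.17, adjusted p = 0.0142). Scaled to the pan-T cell genes, 3 of the 13 were higher and 0 lower, a smaller share than the 67.2% of all tested genes that were higher. In control mice 5 were higher and 1 lower in tumor than in LN, against 22.8% and 16.1% of all tested genes. Among the higher ones were Ifng (3.43 ± 0.29, edgeR adjusted p = 1.66e-05), Cxcl10, a chemokine induced by interferon gamma (4.26 ± 0.52, adjusted p = 0.000227), and Irf1, a transcription factor induced by it (0.85 ± 0.25, adjusted p = 0.0235). In LN between the genotypes 0 of the 13 passed by edgeR on either scale. On the CPM scale 1.07% of all tested genes were higher and 0.0359% lower there.

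On the receiving side, Cd4, which binds class II on the partner cell, and costimulatory genes were lower in deleted-tumor libraries. Of 8 such genes 6 were lower and 0 higher, against 13.7% and 15.0% of all tested genes, and scaled to the pan-T cell genes 0 passed in either direction by edgeR. Cd28 is also among the pan-T cell genes that set this scale, so its own shift is partly built in. Ctla4, a receptor of Cd80 and Cd86, averaged 1357 ± 181 CPM in MHCII-deleted and 3067 ± 186 CPM in control tumor (-1.18 ± 0.11, SE, edgeR adjusted p = 0.000195), and Cd86 was lower too (-1.20 ± 0.22, adjusted p = 0.00396). In LN Ctla4 was the 1 gene of the 8 that passed, at 318 ± 35.5 CPM in MHCII-deleted and 495 ± 6.02 CPM in control mice (-0.64 ± 0.11, edgeR adjusted p = 0.0436), and it was also called lower on the pan-T scale. Among all tested genes 1.07% were higher and 0.0359% lower in LN on the CPM scale. With the replicate block, or without any 1 of the LN libraries, 0 of all tested genes passed in LN by edgeR, so the Ctla4 call is lost in each of those fits. Ctla4 and Cd80, a ligand of it, were the 2 called higher in control-tumor than in control-LN libraries (2.63 ± 0.10 and 1.39 ± 0.37, edgeR adjusted p = 1.83e-07 and 0.0146). That is 2 higher and 0 lower of 8, against 22.8% higher and 16.1% lower among all tested genes, so the higher share was near that of all genes.

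Between deleted-tumor and deleted-LN libraries, the transcription factors had 0 higher and 6 lower of 8, the endosomal processing genes 7 higher and 1 lower of 8, the turnover genes 2 higher and 2 lower of 4, the interferon gamma genes 4 higher and 4 lower of 13 and the recognition genes 1 higher and 3 lower of 8, against 24.3% higher and 20.1% lower among all tested genes. Scaled to the pan-T cell genes, these lists had 4, 8, 4, 6 and 5 higher in the same order, and 0 lower in each. Among all tested genes 64.4% were higher and 2.28% lower on that scale, so the lower calls depend on the scale. In the interaction the counts were 0 and 0, 0 higher and 1 lower, 0 higher and 2 lower, 0 higher and 4 lower, and 0 higher and 4 lower in the same order of lists, against 4.14% higher and 6.57% lower among all tested genes. Pan-T scaling of the interaction gave 4, 6, 1, 1 and 1 higher in that order, and 0 lower in each list. Among all 13920 tested genes 6367 were higher and 21 lower on that scale, so these higher calls also depend on the scale. Of the other genes of the class II locus, 2 were tested, and the 1 call was H2-DMb2, lower in deleted-tumor than in deleted-LN libraries (-3.11 ± 0.97, edgeR adjusted p = 0.0253), which did not pass after scaling to the pan-T cell genes (-1.99, adjusted p = 0.0894). H2-DMb2 thus moved opposite to H2-DMb1 there.

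Cells that make class II constitutively were looked for by their markers. B cell markers (9 genes) summed to 352 and 404 CPM in deleted-tumor libraries, 591 to 675 in control-tumor libraries, 1224 and 1755 in deleted-LN libraries and 1508 to 1801 in control-LN libraries. Nearly all of this was Ighm, the mu heavy chain. The defining gene Ms4a1 did not exceed 2.13 CPM in any library, and was at 0 in some tumor libraries of both genotypes. Cd22 had 49.5 to 99.3 CPM in control-LN and 1.68 to 4.76 in control-tumor libraries (-4.44 ± 0.49, edgeR adjusted p = 0.000106). Cd79b had 19.0 to 27.1 CPM in control-LN and 7.07 to 12.4 in control-tumor libraries (-1.07 ± 0.31, edgeR adjusted p = 0.0211). Deleted-LN libraries had 25.5 to 51.0 CPM of Cd22, and deleted-tumor libraries 1.44 to 2.92. B cell marker sums were thus higher in LN, where the chains were lower relative to pan-T cell genes. The H2-O genes, which B cells also express, had the same order of groups as these sums in tumor and were higher in LN, as the sums were. The part of B cells in the H2-O values was not tested. Of the 9 markers, 4 were called lower and 0 higher in control-tumor than in control-LN libraries, and 2 were lower and 0 higher in deleted-tumor than in control-tumor libraries, or 1 higher and 1 lower after scaling to the pan-T cell genes. Among all tested genes 16.1% were lower and 22.8% higher between those tissues. Between the genotypes in tumor 13.7% were lower and 15.0% higher, or 0.330% and 67.2% after scaling.

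Macrophage and monocyte markers (14 genes) summed to 34.0 and 40.4 CPM in deleted-tumor libraries, 28.3 to 37.6 in control-tumor libraries, 39.9 and 66.6 in deleted-LN libraries and 30.1 to 42.6 in control-LN libraries, so these ranges overlapped between the tissues. Csf1r and Adgre1 did not exceed 2.61 and 0.629 CPM. Cd14 had 1.68 to 6.81 CPM in deleted-tumor libraries, 3.515 to 8.59 in control-tumor libraries and at most 0.0607 in LN libraries. Cd14 (7.37 ± 1.02, edgeR adjusted p = 0.000579) and Fcer1g (2.54 ± 0.67, adjusted p = 0.0143) were called higher in control-tumor than in control-LN libraries. Lyz2 reached 41.0 CPM in deleted-LN libraries and 19.2 CPM in deleted-tumor libraries. Dendritic cell markers (10 genes) summed to 214 and 384 CPM in deleted-tumor libraries, 101 to 155 in control-tumor libraries, 7.33 and 10.4 in deleted-LN libraries and 4.95 to 7.89 in control-LN libraries. Fscn1, an actin bundling gene that many other cells use as well, held the larger part in the tumor libraries except the first of control mice, where it had 29.7 CPM of the summed 100.6. Zbtb46, a transcription factor of classical dendritic cells, had 19.8 and 28.0 CPM in deleted-tumor libraries, against 46.3, 31.3 and 22.1 CPM in control-tumor libraries, and 4.63 and 3.57 CPM in deleted-LN libraries, against 2.55, 2.75 and 2.71 CPM in control-LN libraries. It was called higher in tumor than in LN both in MHCII-deleted mice (2.54 ± 0.36, edgeR adjusted p = 0.000336) and in control mice (3.64 ± 0.31, adjusted p = 1.59e-05), as the chains were in control mice. Clec9a was at 0 in every library, Itgax did not exceed 1.22 CPM and Flt3 did not exceed 3.05 CPM. Xcr1, a chemokine receptor of cross-presenting dendritic cells, had 3.19 and 5.55 CPM in deleted-tumor libraries, 11.5 to 15.7 in control-tumor libraries, 1.93 and 2.41 in deleted-LN libraries and 1.29 to 2.09 in control-LN libraries, an order of groups like that of the chains. Xcr1 was the 1 dendritic marker called between the genotypes in tumor (-1.62 ± 0.39, edgeR adjusted p = 0.0136), and it did not pass after scaling to the pan-T cell genes (-0.53, adjusted p = 0.246), where the list had 1 higher and 0 lower. In the tissue comparison 4 of 8 tested were higher in control-tumor than in control-LN libraries. Of the 12 macrophage markers tested 2 were higher in that tissue comparison, and 0 passed by edgeR between the genotypes in tumor, against 2 higher after scaling to the pan-T cell genes. Among all tested genes 22.8% were higher and 16.1% lower in the tissue comparison. Between the genotypes in tumor 15.0% were higher and 13.7% lower, or 67.2% and 0.330% after scaling. The part of such cells in the chain values was not tested.

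Summed, lymphatic endothelial markers (7 genes) were higher in both deleted-tumor libraries than in any control-tumor library, and by far the highest in the second. They summed to 33.1 and 266 CPM in deleted-tumor libraries, against 13.2 to 27.5 CPM in control-tumor libraries and at most 2.00 CPM in LN. Lyve1, a lymphatic hyaluronan receptor, had 2.72 and 83.3 CPM in deleted-tumor libraries, against 1.16 to 5.47 CPM in control-tumor libraries. The second deleted-tumor library, which also had the higher chain levels of the pair, thus held most of it. Prox1 had 1.61 and 7.41 CPM in deleted-tumor libraries, on either side of the control-tumor libraries (3.02 to 5.08 CPM). Flt4, the receptor of lymphatic growth factors, had 10.6 and 60.8 CPM in deleted-tumor libraries, against at most 4.31 CPM in control-tumor libraries. The part of these cells in the difference between the 2 libraries was not tested. Blood endothelial and stromal markers (10 genes) summed to 370 and 786 CPM in deleted-tumor libraries, 555 to 4280 in control-tumor libraries, 195 and 216 in deleted-LN libraries and 182 to 219 in control-LN libraries. CD8 T cell and NK cell markers (8 genes) summed to 46.3 and 67.8 CPM in deleted-tumor libraries, 70.9 to 99.8 in control-tumor libraries, 53.2 and 64.3 in deleted-LN libraries and 59.6 to 69.1 in control-LN libraries. Treg markers (6 genes) summed to 3238 and 3591 CPM in deleted-tumor libraries, 7365 to 8051 in control-tumor libraries, 3006 and 3236 in deleted-LN libraries and 3434 to 3733 in control-LN libraries, and all 6 were called lower in the tumor comparison of the genotypes, where 0 passed by edgeR in either direction after scaling to the pan-T cell genes. In that comparison 10 of 12 melanoma markers were higher and 0 lower (12 and 0 after scaling to the pan-T cell genes), and the lymphatic list had 2 higher and 0 lower of 6 tested (5 and 0 after scaling). The stromal list had 1 higher and 1 lower of 10 (3 and 0 after scaling), and the CD8 T cell and NK cell list had 1 higher and 1 lower of 8 (1 and 0 after scaling). Among all tested genes 15.0% were higher and 13.7% lower in that comparison, or 67.2% and 0.330% after scaling.

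**Figure D5:**
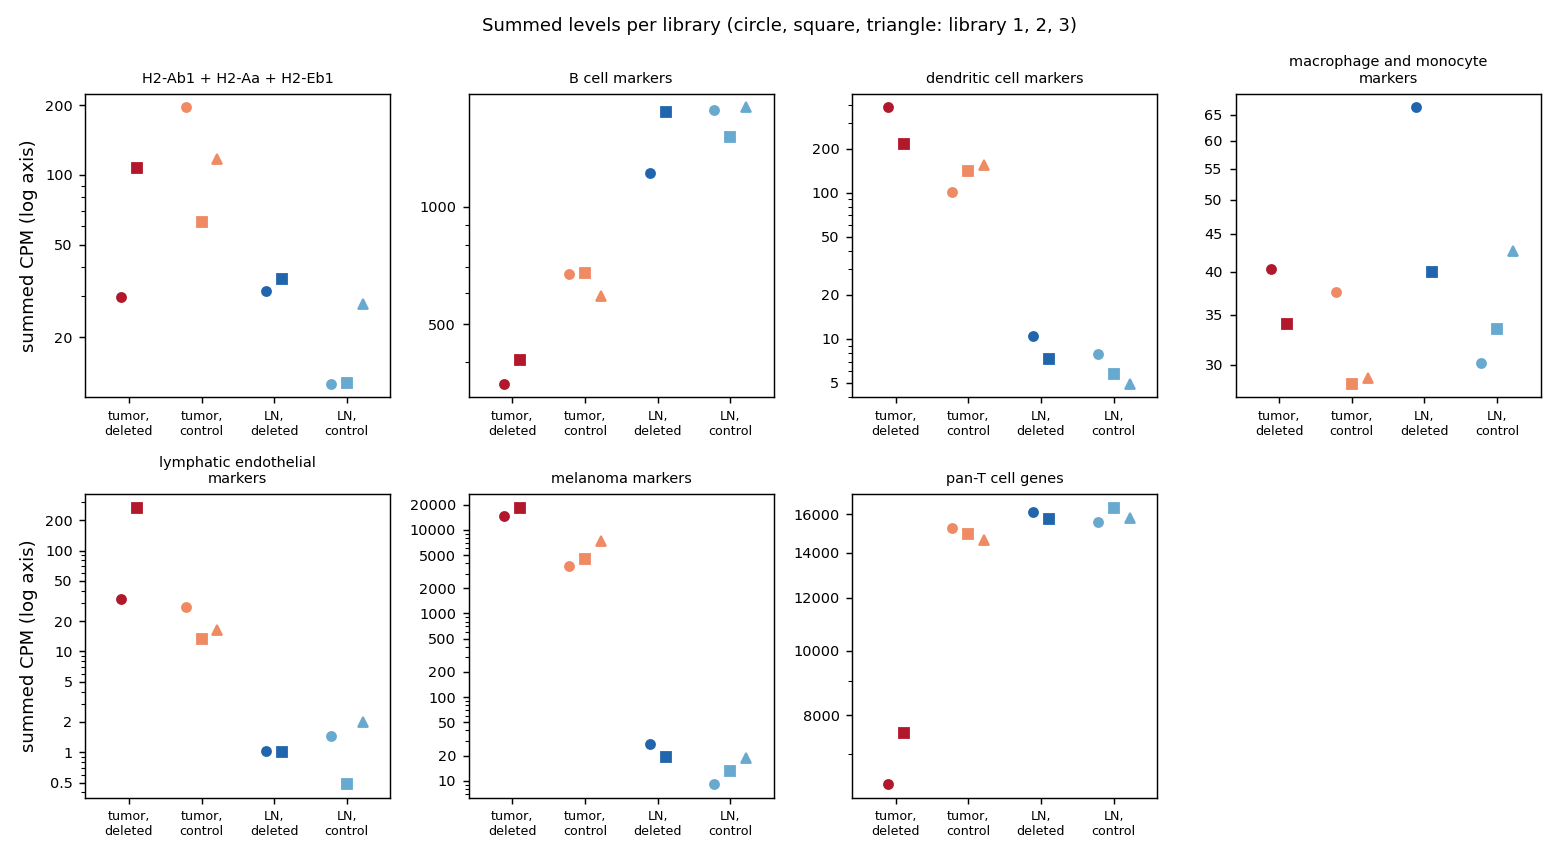
Summed CPM per library (log axes) of the 3 classical chains, of 5 marker lists and of the 20 pan-T cell genes, with a circle, square and triangle for library 1, 2 and 3 of each group. Chain sums are lowest in control-LN libraries (12.6 to 27.9 CPM), B cell markers are highest in LN (1224 to 1801 CPM), and the tumor libraries of MHCII-deleted mice are lowest in pan-T cell genes (6319 and 7532 CPM).

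Genes with a pattern like that of the chains were ranked by the root mean square difference, over the 10 libraries, between their centred log2 CPM and the mean of H2-Ab1, H2-Aa and H2-Eb1. Among 9748 genes, the members and those of at least 5 CPM on average, the 10 nearest that are not members were Ubald2 (0.50), Pim1 (0.51), Tbx21 (0.54), Runx2 (0.60), Xcr1 (0.61), Lrrc32 (0.65), Klf6 (0.65), Maff (0.67), Polg2 (0.67) and Jdp2 (0.67). Pim1, a cytokine-induced kinase, had 29.2 and 58.9 CPM in deleted-tumor libraries, against 103, 50.2 and 80.3 CPM in control-tumor libraries, and 26.3 and 39.8 CPM in deleted-LN libraries, against 13.1, 13.2 and 10.2 CPM in control-LN libraries. Like H2-Ab1 and H2-Aa, it was highest in the first control tumor library and higher in both LN libraries of MHCII-deleted mice than in control-LN libraries. Tbx21, the T-bet transcription factor, had 38.5 and 92.0 CPM in deleted-tumor libraries, against 219, 144 and 160 CPM in control-tumor libraries, and 26.4 to 33.4 CPM over the LN libraries. The other members lay farther off. Cd74 ranked 429th (0.99), Ciita 935th (1.10), H2-DMb1 2426th (1.23), Ctss 6095th (1.44), H2-DMa 6672nd (1.48), H2-Oa 8951st (1.82) and H2-Ob 9271st (2.16), so H2-O had a pattern among the least like that of the chains. The ranking uses the same 10 libraries as the comparisons above and describes them only.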

How the data were processed

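Per the labels' protocols, cells were sorted by FACS, their RNA was amplified (SMARTer Ultra Low), and Nextera XT libraries were sequenced as single reads of 50 bases. Per the submitters' processing notes, CASAVA 1.8.2, STAR 2.4, featureCounts 1.4.6 and GRCm38 were used. The annotation release and the strand setting are not given in the sources used here. The table the authors deposited holds raw counts of reads for each gene in the 10 libraries, as whole numbers without normalisation, 28539329 to 35736175 per library, with no row that names no gene. The protocol speaks of tumor only, and how LN was prepared is not given.

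Symbols, positions and exon lengths came from GENCODE M21 (GRCm38), which matched all 21556 genes, and promoters from RefSeq GRCm38.p6. Genes were filtered with filterByExpr (minimum count 10) and normalised by TMM. A robust edgeR 4.0.16 quasi-likelihood model (R 4.3.3) with 4 group means was fitted to all 10 libraries, because groups of 2 hold little information on spread. P-values were adjusted over all 13920 tested genes by the Benjamini-Hochberg method and called under 0.05. The SE is the log2 fold change divided by the square root of F. The 4 group contrasts and 1 interaction were tested. Profiles were compared as log2 CPM (prior count 2). Alternatives were RLE size factors, DESeq2 1.42.0, limma-voom 3.58.1 with quality weights, no filter, non-robust spread, only the groups compared, a replicate block, pan-T scaling (library sizes in proportion to the summed counts of 20 T cell genes) and leaving out each library. The scripts were tested on simulated data. The 10 genes and the 15 lists beside them were chosen with earlier results of these data known. All 10 genes are named in every comparison, and of each other list up to 4 called genes by p. No libraries of the same group agreed within sampling noise, and pairs across groups were not checked. Genes of the lists for which no row was matched were not analysed here.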

Additional observations from a re-analysis of the deposited data

Results flagged for a closer look

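The genotype difference of Ctss, the cathepsin that trims the invariant chain, differed between tumor and LN. The difference of the 2 log2 fold changes was -1.162 (edgeR interaction, SE 0.21, adjusted p = 0.0099), with -1.13 in tumor and 0.04 in LN, MHCII-deleted over control. In tumor both libraries of MHCII-deleted mice (168 and 227 CPM) lay below all 3 of control mice (371 to 477 CPM), and in LN the 2 of MHCII-deleted mice (447 and 524 CPM) lay around those of control mice (465 to 481 CPM). Of the 20 pan-T cell genes, 18 were called lower in the same interaction, with a median of -1.08, against 6.57% lower among all tested genes. Per 1000 counts of these genes, Ctss averaged 28.3 ± 2.55 in deleted-tumor and 28.8 ± 3.48 in control-tumor libraries, and 30.5 ± 3.95 in deleted-LN and 29.8 ± 1.17 in control-LN libraries (SD, n = 2, 3, 2 and 3).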

How the results depend on the processing

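For the tumor comparison of the genotypes, 5 genes were called, against 2 by limma-voom, 3 when only the tumor libraries were fitted and 1 under pan-T scaling. For the interaction, 1 was called, against 3 by DESeq2 and 0 under pan-T scaling. Leaving out 1 library gave 4 to 5 genes in tumor, 0 to 0 in LN, 1 to 5 for the interaction, 7 to 7 between the tissues in control mice and 5 to 6 in MHCII-deleted mice. Pan-T scaling turned the sign in tumor of H2-Aa (0.40), H2-Eb1 (0.35), H2-DMa (0.25), H2-Oa (0.070), H2-Ob (0.33) and Ciita (0.87), between the tissues in MHCII-deleted mice of Cd74 (1.06), and in the interaction of Cd74 (0.086), H2-DMa (0.23), H2-Oa (0.33) and H2-Ob (0.30). In LN, H2-DMa (-0.0234), H2-Ob (-0.01273) and Ctss (-0.0051) changed sign with RLE size factors and with DESeq2 (-0.0234, -0.01272 and -0.0051), and Ciita did so between the tissues in MHCII-deleted mice by limma-voom (-0.23). Apart from pan-T scaling, whose construction shifts every gene, the cause was not tested. Leaving out 1 library turned the sign of uncalled values only: H2-Aa (-2.43 to 0.13) and Ciita (-1.76 to 0.57) in tumor, H2-DMa (-0.053 to 0.085), H2-DMb1 (-1.40 to 0.41), H2-Ob (-0.093 to 0.11) and Ctss (-0.083 to 0.15) in LN, and H2-Ab1 (-0.056 to 1.29), H2-Aa (-0.60 to 1.97), Cd74 (-0.57 to 0.23) and Ciita (-1.48 to 0.85) between the tissues in MHCII-deleted mice.

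Deviations of same-numbered libraries from their group means were weakly correlated (-0.148 to 0.0462, and 0.0203 to 0.0462 between the tissues), and no pairing was assumed. With 2 or 3 libraries per group, such values cannot show whether 2 libraries come from 1 animal. With the replicate block 4 genes were called in tumor, H2-DMa being lost (-0.83, edgeR adjusted p = 0.064) and Ciita turning to 0.40. Of the other member values and counts, 627 and 108 kept their side of the threshold or stayed within 1.5 times. Counts over all genes moved most in LN, from 154 to 0 with the block or without any 1 LN library and to 23 with RLE, 390 under pan-T scaling, 647 by DESeq2, 782 by limma-voom and 806 in the LN libraries alone. They also moved in tumor, 3999 against 2519 in the tumor libraries alone and 9394 under pan-T scaling, between the tissues in MHCII-deleted mice, 6175 against 9286 under pan-T scaling, and in the interaction, 1491 against 2487 by DESeq2 and 6388 under pan-T scaling. Ciita, with as little as 1 count in a library, limits what can be said of it at this depth.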
